A study of Mus musculus with 8 samples.

Results

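The 44 genes described here encode proteins of the Golgi apparatus and of the vesicle coats and small GTPases that serve it. They were selected by name as a trafficking module, with Glg1 placed among them because of its genotype difference at E11.5, and all 44 were found in the count tables of both stages. They are 44 of 14935 genes tested at E11.5 and 44 of 16326 tested at E12.5, and all 44 passed the filter on low counts at each stage. RNA from whole mouse embryonic cortex was sequenced at E11.5 and E12.5, with 2 Mboat7+/- and 2 Mboat7-/- cortices at each stage, on a C57BL/6N background. The deletion was present in the whole animal, so that every cortex carried at least 1 deleted allele and no wild-type group was compared. Mboat7 encodes an acyltransferase that attaches arachidonic acid to phosphatidylinositol. The study stained the Golgi protein GM130, the product of Golga2, in cortices of these genotypes, and the comparison here asks whether transcripts of the Golgi machinery differed with genotype.

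The Golgi apparatus receives newly made proteins from the endoplasmic reticulum in COPII-coated vesicles, modifies them and sorts them to the plasma membrane and endosomes. COPI-coated vesicles carry proteins backwards, clathrin with the AP-1 adaptor buds from the trans-Golgi network, Arf GTPases recruit coats, Rab GTPases direct vesicles, and golgins are long coiled-coil proteins that tether them. In radial glia, the stem cells of the embryonic cortex, the Golgi lies in the process that reaches the ventricular surface. Phosphoinositides mark Golgi and endosomal membranes and are bound by many coat and tethering proteins.

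Total counts ranged from 20799311 to 28189771 per library. The lowest count of any member in a library was 209 for Trip11 at E11.5 and 194 for Sec24d at E12.5. These are far above 3 counts, so every member was present in every library. Presence does not show that a difference between genotypes could be detected. The 8 radial glia markers were measured in every library, with a summed level of 3480 to 4050 normalized CPM (counts per 1000000 counts) at E11.5 and 2760 to 3200 at E12.5. Mboat7 did not separate the genotypes: its counts were 700 and 876 in the E11.5 libraries labelled Mboat7+/- and 1103 and 860 in those labelled Mboat7-/-, and 739, 782, 730 and 729 in the same order at E12.5. Counts summed over a whole gene cannot show whether the deleted part was read, so each direction below rests on the labels. Xist was counted 17875 times in E11.5 Mboat7+/- replicate 1 and at most 2 times in the 7 other libraries. The paper collected embryos of either sex, and the part of sex in the E11.5 values was not tested. The stages were sequenced by different providers, so a difference in level between stages cannot be told apart from the provider.

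A sequence feature that the choice of members did not use was looked for in their promoters, taken from RefSeq as windows of 250 bases before to 50 bases after the start of transcription (GRCm38.p6). Windows were found for 40 of the 44 members, and Golga4, Golgb1, Arf6 and Arfgef1 are named only. The Golgi apparatus stress response element, ACGTGGC, was searched on both strands and was present in 10 of the 40 members (25.0%), in 846 of all 32851 windows (2.58%) and in 467 of 10471 protein-coding genes tested at both stages (4.46%). The 10 holders were Arf1, Copg1, Golga3, Rab5a, Sec13, Sec23a, Sec24c, Sec24d, Sec31a and Uso1, 5 of them from the COPII coat. The unfolded protein response element, TGACGTGG, which shares ACGTGG with the first motif, was present in 6 members (15.0%), namely Arf1, Copb1, Copb2, Gbf1, Sec23a and Sec24d. It was present in 0.676% of all windows and in 110 of the 10471 protein-coding genes (1.05%). A match of letters is a description and not a binding site. The 120 bases before the RefSeq start are shown for Sec24d, whose motifs overlap and which had the highest log2 fold change of any member at E12.5. They are also shown for Uso1, which held the first motif 2 times, for Sec24c, a relative of Sec24d with only the first motif, and for Glg1, which held neither. GENCODE M21 places the start of Sec24d at chr3:123267455, so its marked motifs lie after that start. Capitals mark the motifs on either strand.
Sec24d (chr3:123267376-123267495, + strand): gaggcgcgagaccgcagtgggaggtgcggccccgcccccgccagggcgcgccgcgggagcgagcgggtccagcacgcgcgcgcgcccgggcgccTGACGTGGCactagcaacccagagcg
Uso1 (chr5:92137818-92137937, + strand): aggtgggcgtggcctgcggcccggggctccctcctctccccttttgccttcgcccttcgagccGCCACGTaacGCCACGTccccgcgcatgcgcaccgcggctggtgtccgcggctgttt
Sec24c (chr14:20674201-20674320, + strand): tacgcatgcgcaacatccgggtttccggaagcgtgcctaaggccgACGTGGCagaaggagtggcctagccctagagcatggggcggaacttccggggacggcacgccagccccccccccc
Glg1 (chr8:111259211-111259330, - strand): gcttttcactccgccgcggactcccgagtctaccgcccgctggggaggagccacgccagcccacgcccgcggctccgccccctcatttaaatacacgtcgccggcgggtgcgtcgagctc
At E11.5 the 10 holders of ACGTGGC had a median log2 fold change of 0.04 and the members whose window lacked it one of -0.01, and at E12.5 these medians were -0.0042 and 0.02.

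At E11.5, Glg1 was the member with the highest log2 fold change. Glg1 encodes a sialoglycoprotein of Golgi membranes that binds fibroblast growth factors, and lies at chr8:111154421-111259216 on the - strand of GRCm38. Its normalized level was 70.2 and 70.6 CPM in the Mboat7+/- cortices and 122 and 111 CPM in the Mboat7-/- cortices, that is 70.4 ± 0.319 against 117 ± 7.30 CPM (mean ± SD, n = 2 each). The 2 genotypes did not overlap, and the log2 fold change (Mboat7-/- over Mboat7+/-, as for every fold change below) was 0.73 with a standard error of 0.079. These values placed Glg1 in the module and are a description. Tgoln1, which encodes a protein that cycles through the trans-Golgi network, overlapped between genotypes, with 25.7 and 21.9 against 22.7 and 20.04 CPM and a log2 fold change of -0.14.

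Of all 44 members at E11.5, 7 were higher and 1 was lower in Mboat7-/- at an unadjusted p under 0.05, or 15.9% and 2.27%, against a background of 8.03% and 6.07% of all genes tested in the same directions. Their genotypes did not overlap for 16 higher members and 8 lower ones (36.4% and 18.2%), against 23.1% and 23.3% of all genes. The E11.5 contrast was part of the choice of members, so nothing is read from these counts. No gene of the 14935 (0%) reached an adjusted p of 0.05 in edgeR's quasi-likelihood test, and 2107 genes (14.1%) were under an unadjusted 0.05. The 7 higher members were Glg1, the golgins Golga3, Golga4, Golgb1, Gcc2 and Trip11, and Arfgef1, and the lower member was Rab11b. In that test the adjusted p was 0.0851 for Glg1 and 0.187 for Arfgef1. With a replicate block (batch and replicate number coincide in the labels) it was 2.04e-04 and 0.049, from the same contrast that placed Glg1 in the module. The deviations of same-numbered E11.5 samples correlated at only 0.0548. Leaving out Mboat7+/- replicate 1 lowered the count of 8 members to 5.

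The golgins and matrix proteins held 5 of the 8 members under 0.05. Trip11, a cis-Golgi tether, had the highest log2 fold change of the 12 (0.59, SE 0.18), with 9.65 and 8.95 CPM in Mboat7+/- and 15.1 and 12.7 CPM in Mboat7-/-. Gcc2, a tether of the trans-Golgi network, measured 34.3 and 38.5 against 47.1 and 44.3 CPM (0.33, SE 0.10). Golga3 measured 35.3 and 37.6 against 45.6 and 45.8 CPM (0.32, SE 0.096). The genotypes were apart for each of these 3 genes. Golgb1, which encodes giantin, measured 85.3 and 86.1 against 103 and 104 CPM (0.27, SE 0.072). Golga4, another tether of the trans-Golgi network, measured 120 and 116 against 146 and 136 CPM (0.26, SE 0.071). The other golgins and stacking proteins lay lower in the list. Golga2, whose product GM130 the study stained, measured 95.6 and 92.7 against 93.4 and 92.4 CPM, with overlapping genotypes and a log2 fold change of -0.02 (SE 0.072). Golga1, Golga5, Gcc1, Gorasp1 and Uso1 also overlapped, with log2 fold changes between -0.03 and 0.14. Gorasp2, which encodes a protein that links Golgi stacks, had the lowest value of the group, 131 and 123 against 119 and 109 CPM (-0.16, SE 0.076).

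**Figure D1:**
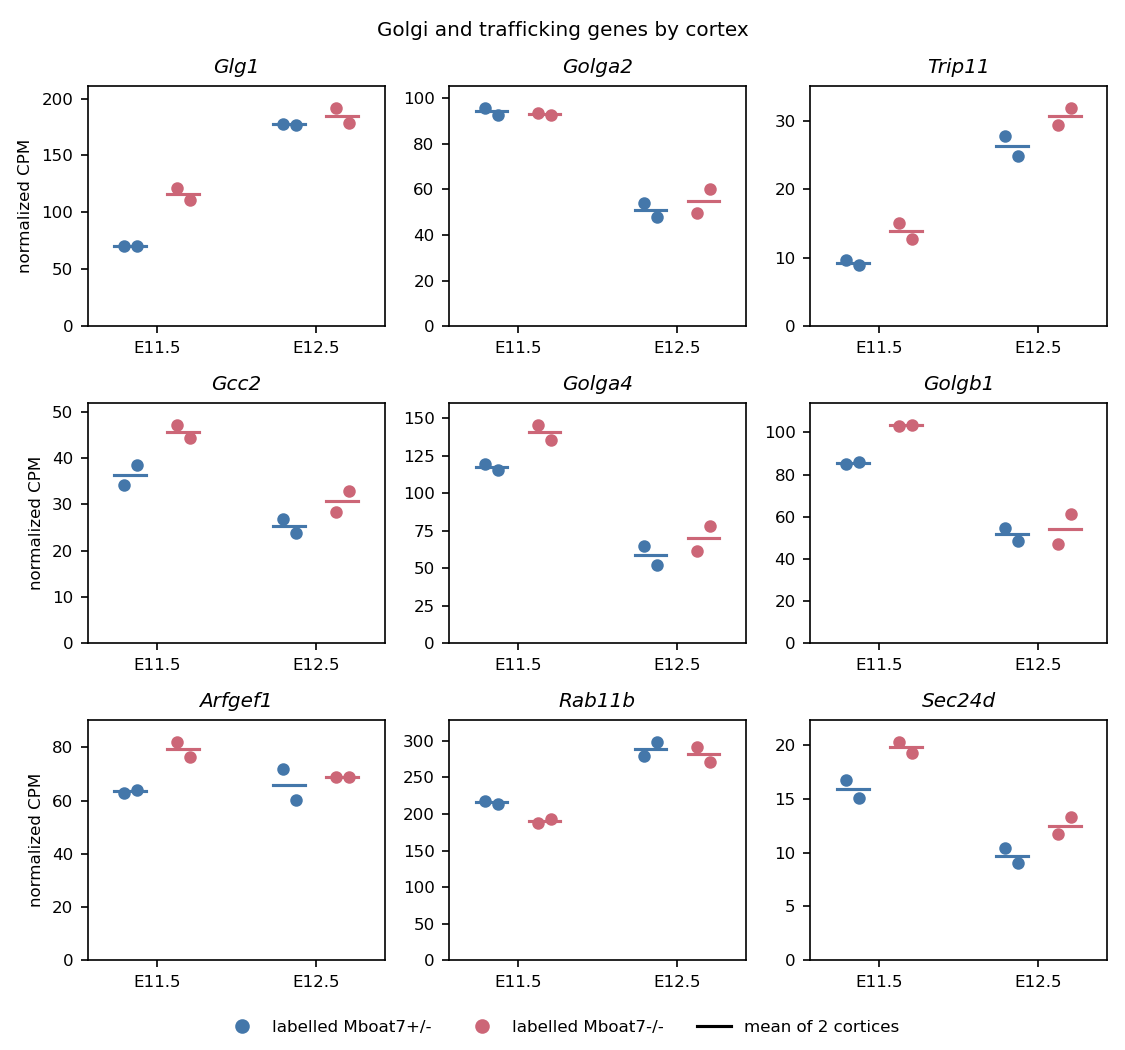
Normalized CPM (y axis, from 0) of 9 members in each cortex at E11.5 and E12.5, with points for the 2 cortices of a genotype and a line at their mean. Glg1 at E11.5 sits at 70.2 and 70.6 CPM in Mboat7+/- and 122 and 111 CPM in Mboat7-/-, while Golga2 shows overlapping genotypes at both stages.

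Among the Arf GTPases and their exchange factors, Arfgef1, which activates Arf proteins at the trans-Golgi network, measured 62.9 and 64.0 against 82.1 and 76.4 CPM (0.32, SE 0.082). Its relative Arfgef2, a gene of human periventricular heterotopia, measured 27.2 and 25.5 against 31.0 and 31.6 CPM (0.25, SE 0.11), and Gbf1, the exchange factor of the cis-Golgi, had 0.08. The genotypes were apart for all 3 exchange factors, as they were in this direction for 23.1% of all genes. With the trend on transcript length removed (described below), Arfgef1 was at 0.17, Arfgef2 at 0.07 and Gbf1 at -0.05. Arf1, which recruits COPI and AP-1, was lowest in the group at 391 and 397 against 376 and 356 CPM (-0.11, SE 0.059), and Arf6, an Arf of the plasma membrane and endosomes, overlapped at 0.03.

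Most Rab GTPases lay slightly below 0. Of the 8, 7 had a log2 fold change below 0, and their range was -0.18 to 0.04. Their median was -0.04, where that of all genes was -0.0055. With the trend on transcript length removed (described below), it was -0.02, with 3 above 0 and 5 below. Rab11b, a GTPase of recycling endosomes, measured 218 and 214 CPM in Mboat7+/- and 187 and 194 CPM in Mboat7-/- (-0.18, SE 0.062), with the genotypes apart. Rab8a and Rab10, which act in transport to the plasma membrane, were also apart and lower, at -0.04 and -0.09. Rab1a (endoplasmic reticulum to Golgi), Rab6a (within the Golgi), Rab7 (late endosomes) and Rab11a overlapped between -0.07 and -0.01, and Rab5a (early endosomes) was highest at 0.04.

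The COPI subunits other than Cope were near 0 at E11.5, and the COPII genes spread more widely. Of the COPI subunits, Copa, Copb1, Copb2 and Copg1 overlapped between genotypes at 0.02 to 0.06, and Cope was lowest of all 44 members at 91.4 and 96.4 against 87.3 and 76.7 CPM (-0.19, SE 0.087). Of the 8 COPII genes, 6 were above 0 and 0 were under an unadjusted p of 0.05 by edgeR. Of the same 8, 5 (62.5%) were higher with the genotypes apart, where 23.1% of all genes were, namely Sec23a, Sec24a, Sec24b, Sec24d and Sec31a. This is a description, since the contrast was used in the choice of members. With the length trend removed, the COPII median went from 0.11 to 0.02. Sec23a was then at 0.08, Sec24a at -0.02, Sec24b at 0.02, Sec24d at 0.30 and Sec31a at 0.08. Sec24d, a cargo-binding subunit, was highest at 16.7 and 15.0 against 20.3 and 19.2 CPM (0.32, SE 0.14), and Sec13, an outer coat subunit, was lowest at -0.09. Sec24c (0.04) and Sec23b (-0.0096) overlapped. Of the AP-1 genes, Ap1g1 was 0.13 with the genotypes apart and Ap1b1 was -0.02 with overlap, and of the Golgi SNAREs, which drive membrane fusion, Gosr1 was 0.22 and Gosr2 -0.14, each apart.

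**Figure D2:**
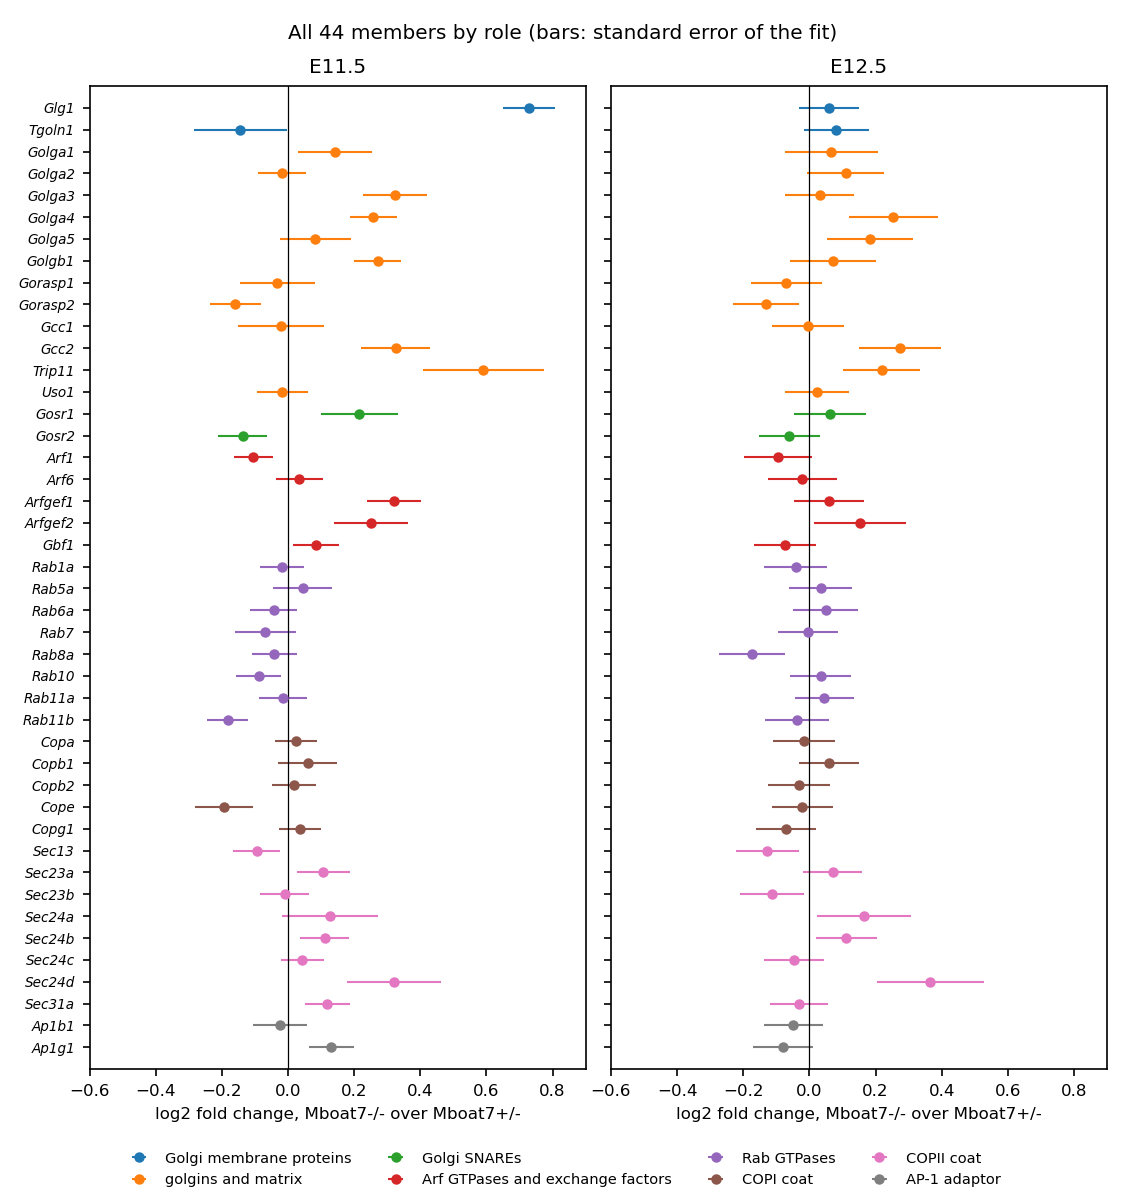
Log2 fold change (x axis, Mboat7-/- over Mboat7+/-) of all 44 members at E11.5 and E12.5, coloured by role, with bars for the standard error of the fit. At E11.5 Glg1 (0.73) and Trip11 (0.59) stand to the right, and at E12.5 all members lie between -0.17 and 0.37.

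Transcript length separated these E11.5 values. The length used was that of the longest coding transcript of each gene in GENCODE M21, 7021 bases for Glg1, which 8.78% of all genes tested exceeded. All genes tested were divided by length into 5 classes of about equal size, and the median log2 fold change at E11.5 was -0.13, -0.07, -0.02, 0.05 and 0.14 from the shortest to the longest class. All 8 members under 0.05 were among the 12 members of the longest class (5145 bases or more). In that class 7 of 12 members (58.3%) were higher at an unadjusted p under 0.05 (6 of 11 without Glg1), where 25.3% of all its genes were, a description since the contrast was used in the choice, and the members' median was 0.27 (0.26 without Glg1) against 0.14. In the 4 shorter classes 0 members were under 0.05 by edgeR, where 16.9%, 9.67%, 8.09% and 10.2% of all their genes were. The members' medians there were -0.09, -0.07, -0.01 and 0.03, beside the values of all genes above. Over the 44 members, log2 fold change and log10 length had a Pearson r of 0.65 at E11.5 (0.67 without Glg1), against 0.23 over 14833 genes. These are correlations over genes that share the same 4 libraries, and genes are not independent replicates.

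**Figure D3:**
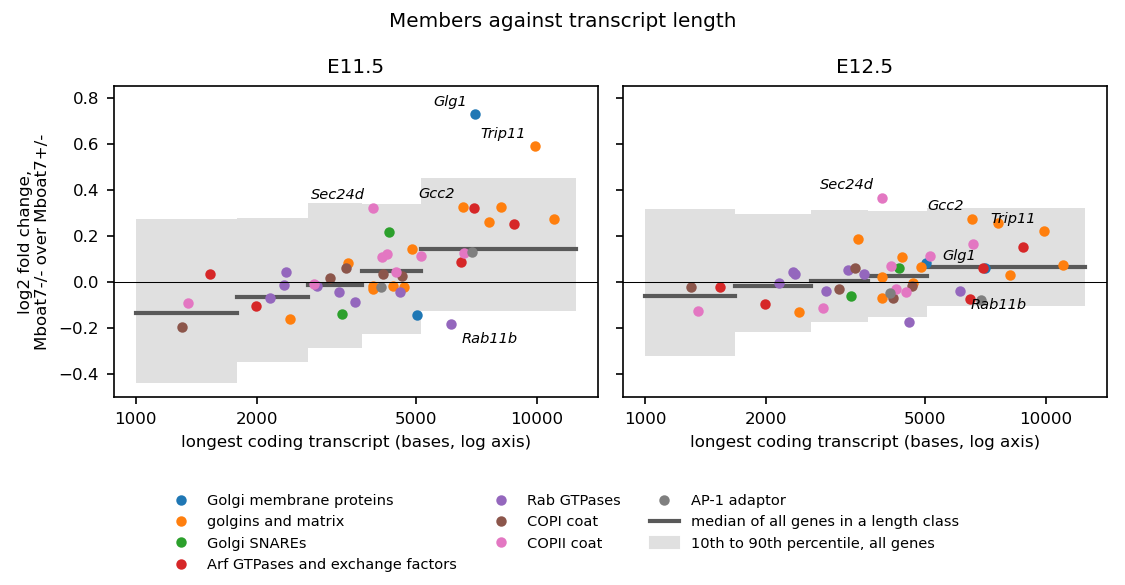
Log2 fold change of the members (points, by role) against the length of the longest coding transcript in bases (log axis), with the median (line) and the 10th to 90th percentile (grey) of all genes in each of 5 length classes. The grey medians climb from -0.13 to 0.14 in the left panel (E11.5) and, less steeply, from -0.06 to 0.06 in the right one (E12.5), and Glg1 and Trip11 lie above the grey band at E11.5.

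The length trend followed genotype in the E11.5 libraries. The median deviation of the longest class from the mean of the 4 cortices was -0.06 and -0.07 in Mboat7+/- and 0.08 and 0.07 in Mboat7-/- on the log2 scale, and the shortest class was the mirror image at 0.06, 0.08, -0.06 and -0.07. At E12.5 the deviations of the longest class were 0.04 and -0.09 in Mboat7+/- and 0.0045 and 0.06 in Mboat7-/-, with the genotypes overlapping. With 2 cortices per genotype, the E11.5 length trend and genotype cannot be told apart.

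**Figure D4:**
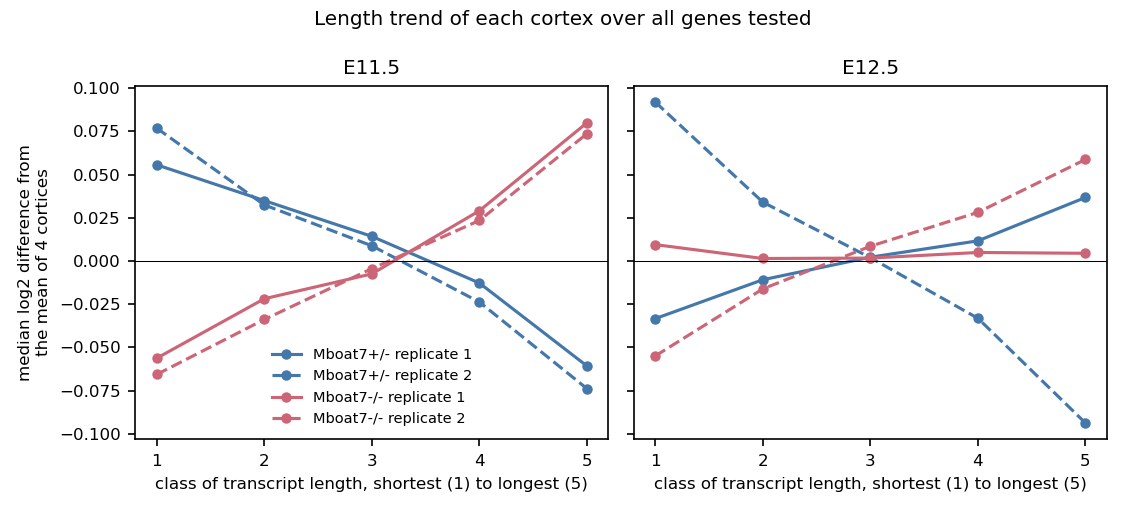
Median log2 difference of each cortex from the mean of the 4 cortices of its stage (y axis) over all genes tested, by class of transcript length (x axis, 1 shortest to 5 longest). At E11.5 both Mboat7+/- cortices slope down and both Mboat7-/- cortices slope up, whereas at E12.5 the steepest slope is that of Mboat7+/- replicate 2, at -0.09 in the longest class.

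The trend was then removed from each library by a smooth curve on length, and the E11.5 fold changes were fitted again. The curve was fitted to the log2 difference of each library from the mean of the cortices of its stage. Because that difference followed genotype at E11.5, the removal also takes out any genotype difference that ran with length. Glg1 kept a log2 fold change of 0.58 and Rab11b moved further from 0, from -0.18 to -0.31. These 2 were the members under an unadjusted p of 0.05, where 8.13% of all genes were. Trip11 moved from 0.59 to 0.40, Gcc2 from 0.33 to 0.18, Arfgef1 from 0.32 to 0.17, Golga3 from 0.32 to 0.15, Golga4 from 0.26 to 0.09 and Golgb1 from 0.27 to 0.08, all still above 0. Sec24d, with 3903 bases, hardly moved (0.32 to 0.30). The median of the 12 members of the longest class went from 0.27 to 0.09, the median of all 44 from 0.03 to 0.0098, and 24 members were above 0 and 20 below. The Pearson r with length was 0.27 after the removal. The adjusted p in edgeR's quasi-likelihood test was then 0.323 for Glg1 and 0.431 for Rab11b. With the replicate block added to the length removal it was 3.72e-04 and 0.0169, again within the contrast used in the choice of members.

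**Figure D5:**
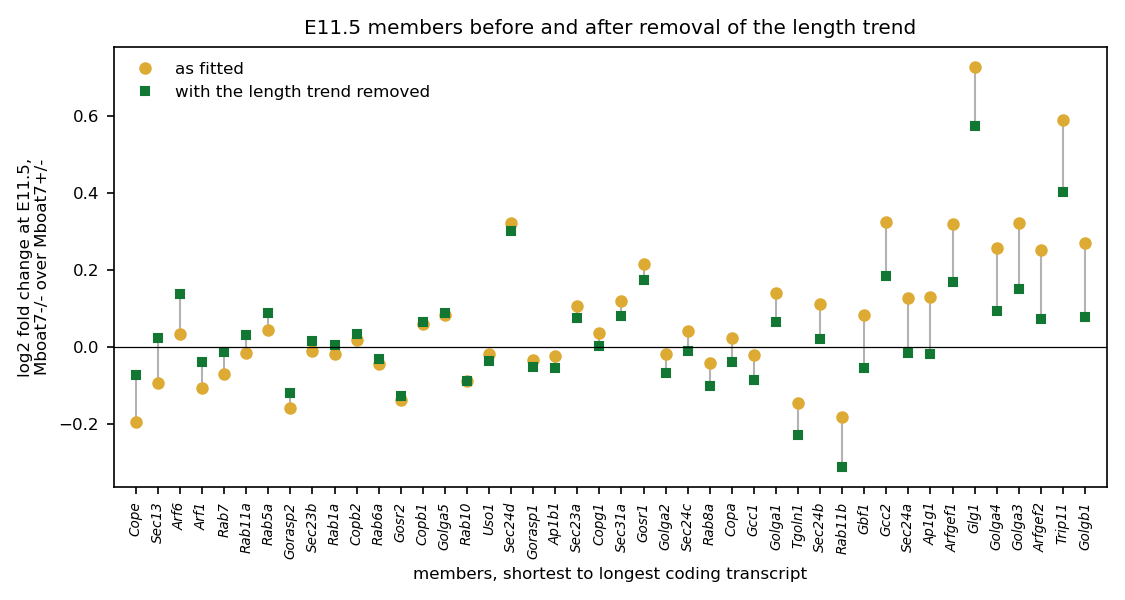
Log2 fold change of each member at E11.5 as fitted (circles) and with the length trend removed (squares), ordered from the shortest to the longest coding transcript. Glg1 goes from 0.73 to 0.58 and Rab11b from -0.18 to -0.31, and the long golgins at the right, such as Golgb1 (0.27 to 0.08), move down.

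E12.5, whose libraries were not used to place Glg1 in the module, gave the same contrast in other cortices. The members were nonetheless chosen with earlier results of these data known. No member reached an adjusted p of 0.05 in edgeR's quasi-likelihood test, where 3 of 16326 genes did (0.0184%). Glg1 measured 178 and 177 CPM in Mboat7+/- and 192 and 178 CPM in Mboat7-/-, means of 178 ± 0.575 and 185 ± 9.61 CPM (SD, n = 2 each). The genotypes did not overlap, but lay closer together than the Mboat7-/- cortices did to each other, and the log2 fold change was 0.06 (SE 0.091, edgeR adjusted p = 0.964), or 0.0031 with the length trend removed. The change of the Glg1 fold change from E11.5 to E12.5 was -0.67 (SE 0.11) with an adjusted p of 0.47 in edgeR's interaction test over 14996 genes, which contains the E11.5 values. No gene passed that test at an adjusted p of 0.05, and 817 were under an unadjusted 0.05.

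Of the 44 members at E12.5, 2 were higher and 0 were lower at an unadjusted p under 0.05, against a background of 2.85% and 1.38% of all genes. The 2, Gcc2 and Sec24d, are 4.55% of the members, a share close to the background. Sec24d (chr3:123267455-123365641, + strand) measured 10.4 and 8.99 CPM in Mboat7+/- and 11.7 and 13.3 CPM in Mboat7-/-, a log2 fold change of 0.37 (SE 0.16, edgeR adjusted p = 0.954, and 0.261 to 1 over the alternatives). Gcc2 (chr10:58255497-58305599, + strand) measured 26.8 and 23.9 against 28.4 and 32.9 CPM, a log2 fold change of 0.27 (SE 0.12, edgeR adjusted p = 0.954, and 0.225 to 1 over the alternatives). Both genes were higher with the genotypes apart at E11.5 also, as were 23.1% of all genes, a description since that contrast was used in the choice. With the length trend removed at E12.5, Sec24d stayed at 0.35 and Gcc2 at 0.22, and 1 member (Sec24d) was under 0.05 against 4.64% of all genes. The count of 2 became 0 without Mboat7+/- replicate 2 or without Mboat7-/- replicate 2, 3 without Mboat7+/- replicate 1 and 4 without Mboat7-/- replicate 1. It was 0 with the replicate block and 0 by DESeq2.

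The genotypes did not overlap at E12.5 for 8 higher members (18.2%) and 5 lower ones (11.4%), against 16.9% and 15.2% of all genes. The higher members were Glg1, Tgoln1, Gcc2, Trip11, Sec23a, Sec24a, Sec24b and Sec24d. The lower ones were Gorasp1, Rab8a, Copg1, Ap1b1 and Ap1g1. Across the stages, Gcc2, Glg1, Sec23a, Sec24a, Sec24b, Sec24d and Trip11 were higher with the genotypes apart at both, Rab8a was lower at both, and Ap1g1 was apart in opposite directions. The 7 higher and the 1 lower are 15.9% and 2.27% of the members, against 4.74% and 4.89% of the 13647 genes tested at both stages. In all, 17 members (38.6%, all genes 29.2%) were above 0 at both stages, 13 (29.5%, all genes 29.5%) were below 0 at both and 14 (31.8%, all genes 41.3%) were on opposite sides. These counts contain the E11.5 contrast used in the choice of members and are not adjusted for length, so they are a description.

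By role, the golgins at E12.5 had a median log2 fold change of 0.07, with 9 of 12 above 0. Golga4 measured 65.1 and 52.3 against 61.6 and 78.4 CPM (0.25, SE 0.14), with overlap. Trip11 measured 27.8 and 24.8 against 29.4 and 31.9 CPM (0.22, SE 0.12), with the genotypes apart. Golgb1 and Golga3 had 0.07 and 0.03, with overlap. Gorasp2 was again lowest of the golgins and matrix proteins at -0.13, with 112 and 123 against 114 and 100.4 CPM and overlap. Golga2 measured 53.8 and 47.9 against 49.5 and 60.3 CPM, with overlap, and had a log2 fold change of 0.11 (SE 0.12, edgeR adjusted p = 0.954), so a difference in the transcript of the stained protein was not larger than the spread between cortices. Rab8a was the lowest of all 44 members at 109 and 120 against 108 and 95.7 CPM (-0.17, SE 0.10), and the other 7 Rab genes lay between -0.04 and 0.05, Rab6a highest and Rab11b at -0.04. COPI genes ran from -0.07 (Copg1) to 0.06 (Copb1), Arf genes and exchange factors from -0.09 (Arf1) to 0.15 (Arfgef2), and Arfgef1 was at 0.06. In the COPII coat, Sec13 was lowest at -0.13, and Sec24a (0.17) and Sec24b (0.11) joined Sec24d above 0 while Sec24c was at -0.05. Ap1g1 and Ap1b1 were at -0.08 and -0.05, Gosr1 and Gosr2 at 0.06 and -0.06, and Tgoln1 at 0.08.

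Length left a weaker mark at E12.5. The medians of the 5 length classes were -0.06, -0.02, 0.0036, 0.02 and 0.06, and the 13 members of the longest class had a median of 0.07. The Pearson r over the members was 0.43, and 0.15 after removal. The median over all 44 members was 0.03 (all genes 0.0049) and 0.0062 with the trend removed, and it turned to -0.0071 without Mboat7+/- replicate 2 and -0.02 without Mboat7-/- replicate 1.

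Levels between genes were compared per length, as CPM per kilobase of transcript (RPKM) in Mboat7+/-. Arf1 was the most abundant member at each stage (198 RPKM at E11.5 and 215 at E12.5). At E11.5 it was followed by Arf6 (98.0), Sec13 (87.8), Cope (72.2), Copa (66.3), Copb2 (65.0) and Rab1a (63.0), of which the last 3 lay close together. Long tethers and exchange factors stood at the other end, with Trip11 lowest at E11.5 (0.942 RPKM) and Arfgef2 at E12.5 (2.14). Among the Sec24 genes the order was Sec24c, Sec24b, Sec24d and Sec24a at each stage, from 43.8 to 2.33 RPKM at E11.5. Sec24d therefore had its fold changes on a small share of the Sec24 transcripts. Glg1 ranked 31st of 44 at E11.5 (10.02 RPKM, and 16.6 in Mboat7-/-) and 23rd at E12.5 (25.3 and 26.4).

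A further 195 trafficking genes in 8 lists gave the surroundings of the module. At E11.5, 194 of them were tested, 15 were higher and 9 lower at an unadjusted p under 0.05 (7.73% and 4.64%, below the 8.03% and 6.07% of all genes), 0 passed the adjusted threshold by edgeR, and the median log2 fold change was 0.0068. Golgi glycosylation enzymes and transporters had 6 of 47 higher (12.8%) and 0 lower, with a median of 0.06. In that list Xylt1, which starts glycosaminoglycan chains, was highest at 7.30 and 6.12 against 13.2 and 12.2 CPM (0.93, SE 0.20), and 0.75 with the length trend removed, and St3gal6, a sialyltransferase, was lowest at -0.55. In the list of endoplasmic reticulum stress and CREB3 family genes, 1 of 19 was under 0.05, namely Creb3l2, a transcription factor of secretory genes, at 10.8 and 9.63 against 16.9 and 14.2 CPM (0.62, SE 0.18), and 0.46 with the trend removed. Dnajb11 was lowest there at -0.09. Other coat genes had 2 of 14 higher, from -0.15 (Copz2) to 0.27 (Sec16a, 119 and 118 against 138 and 146 CPM). With the trend removed, Copz2 was at 0.0020 and Sec16a at 0.09. Golgins and cargo receptors outside the module had 4 of 31 higher and 1 lower, from -0.59 (Golga7b) to 0.26 (Lman1). With the trend removed, Golga7b was at -0.57 and Lman1 at 0.20.

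In the remaining lists, other Arf and Rab genes had 0 of 29 higher and 3 lower, from -0.29 (Cyth2) to 0.35 (Rab30). COG and TRAPP tethers had 0 of 22 higher and 2 lower, from -0.28 (Trappc1) to 0.28 (Cog5). Other SNARE genes had 0 of 14 higher and 1 lower, from -0.27 (Use1) to 0.15 (Bet1). The trans-Golgi sorting list had 2 of 18 higher and 2 lower (22.2% in all, where 14.1% of all genes were under 0.05), from -0.19 (Ap1m1) to 0.40 (Ap1s3). With the length trend removed, Cyth2 was at -0.25, Rab30 at 0.16, Trappc1 at -0.12 and Cog5 at 0.28. Use1 was then at -0.13, Bet1 at 0.25, Ap1m1 at -0.13 and Ap1s3 at 0.42. After this removal 11 of the 194 genes (5.67%) were under an unadjusted 0.05, against 8.13% of all genes.

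At E12.5, 192 of these genes were tested, 1 was higher and 1 lower at an unadjusted p under 0.05 (0.521% each, below the 2.85% and 1.38% of all genes), 0 passed the adjusted threshold by edgeR, and the median was -0.01. The higher gene was Herpud1, an endoplasmic reticulum stress gene, at 26.5 and 24.5 against 33.3 and 30.1 CPM (0.31, SE 0.11), and the lower was Galnt10, a mucin-type glycosylation enzyme, at 40.2 and 41.0 against 37.2 and 30.0 CPM (-0.27, SE 0.12). Sec16b had the highest value, 1.16, at 1.502 CPM or less in every cortex. Of the other coat genes Preb was lowest at -0.14. The ends of the other lists were Tmed3 (-0.18) and Tmf1 (0.22) for golgins and cargo receptors, Rab4a (-0.17) and Rab43 (0.47) for Arf and Rab genes, Trappc1 (-0.14) and Trappc8 (0.18) for tethers, Nsf (-0.10) and Stx16 (0.25) for SNARE genes, and Ap1s3 (-0.44) and Ap4e1 (0.30) for trans-Golgi sorting. Furin, a processing protease of the trans-Golgi network, was highest of its list at 0.23, and Sdf2l1 was lowest of the stress list at -0.18.

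Markers of other cell types were summed in the same libraries. Beside the counts of markers below, 8.03% of all genes were higher and 6.07% lower at an unadjusted p under 0.05 at E11.5. At E12.5 these shares were 2.85% and 1.38%. At E11.5 the summed level of 10 mesenchyme markers was 1690 and 1660 CPM in Mboat7+/- and 1940 and 2110 CPM in Mboat7-/-, with 6 of 10 higher at an unadjusted p under 0.05 and 0 lower. That of the red blood cell markers was 6780 and 5120 against 3540 and 3760 CPM, with 5 of 6 tested genes lower, and Hba-a1 and Hba-a2 at 0 in that table. With the length trend removed, 8.13% of all genes were under an unadjusted 0.05 at E11.5. So were 5 of 10 mesenchyme markers and 4 of 6 red blood cell markers. Neuronal markers summed to 1900 and 2170 against 1270 and 2000 CPM (1 of 8 lower), and intermediate progenitor markers to 538 and 569 against 437 and 532 CPM (1 of 6 higher and 3 lower). Whatever their p, 8 of 8 neuronal and 5 of 6 intermediate progenitor markers had a log2 fold change below 0. Their medians were -0.27 and -0.30, and -0.31 and -0.22 with the length trend removed. Endothelial markers summed to 299 and 291 against 329 and 320 CPM (1 of 8 higher), and microglia and macrophage markers to 63.5 and 54.9 against 64.1 and 67.7 CPM (1 of 8 higher). Of the radial glia markers 2 of 8 were lower. At E12.5 the red blood cell markers summed to 5310 and 7710 against 5400 and 3810 CPM (6 of 9 lower), the microglia and macrophage markers to 49.4 and 40.3 against 52.3 and 61.8 CPM (4 of 8 higher), and the mesenchyme markers to 712 and 552 against 689 and 741 CPM (0 of 10 under 0.05 by edgeR). In the other lists at E12.5, 1 of 8 radial glia markers was higher and 1 lower, 1 of 6 intermediate progenitor and 1 of 8 neuronal markers were higher, and 0 of 8 endothelial markers were under 0.05. The part of these cells in the members' values was not tested. In whole tissue, fewer cells of a type and less RNA per cell cannot be told apart.

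Of the 44 members, 8 overlap another protein-coding gene, in each case at least 1 on the opposite strand, among them Golga2 (with Swi5), Rab6a (with Mrpl48), Copa (with Ncstn) and Gorasp2 (with Tlk1). Gorasp1 overlaps Wdr48 on the opposite strand and also Cx3cr1 on its own strand. Whether the counting used strand is not given in the sources used here, so reads of these pairs may be shared. Glg1, Gcc2, Trip11, Rab11b and Sec24d overlap none.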

How the data were processed

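RNA of 8 cortices (4 groups of 2) was sequenced after poly(A) selection with a directional kit. The authors deposited unnormalized counts of reads by gene, in 1 table a stage. The submitters' processing notes name HISAT2, Subread, mm10 and GRCm39 with no roles. E12.5 identifiers were mapped to symbols through GENCODE M21 and E11.5 symbols through RefSeq synonyms (Rab1a is listed as Rab1). Total counts were 20799311 to 28189771 per library. Intervals from counts cover counting error only, and 3 counts correspond to 0.106 to 0.144 CPM.

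Each stage was fitted with edgeR 4.0.16 (R 4.3.3; TMM, filterByExpr with a minimum of 10, glmQLFit and glmQLFTest, Benjamini-Hochberg over all genes tested), and fold changes carry a prior count of 0.125. Both stages were fitted together over shared genes for the interaction. Length trends were removed by splines (5 degrees of freedom) as offsets per library. CPM are TMM-normalized. DESeq2 1.42.0, edgeR's exact test, other filters, size factors, trends and a replicate block were alternatives. Figures used matplotlib 3.10.9.

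The members and lists were chosen with earlier results of these data known. Named with values are Glg1, Golga2, each member under p 0.05 at either stage, and the highest and lowest of each role group and list per stage. Other members are named beside them after seeing their values. The labels give the replicate number as a batch as well, and the replicate block treated same-numbered samples as pairs. The correlation of deviations between same-numbered samples was 0.0548 for E11.5 samples and -0.121 for E12.5 samples, so the counts gave this pairing little support. The labels call the samples biological replicates. Within genotypes, chi-square per degree of freedom was 8.35 to 14.3, so no pair of libraries agreed within sampling noise. On simulated E11.5 data, 164 of 200 altered genes were under an adjusted p of 0.05, and 161 of 200 at E12.5. The altered genes were given larger changes than any member had, so these counts do not describe detection of the members. Of unaltered genes, 4.84% at E11.5 and 5.12% at E12.5 were under an unadjusted 0.05. With a length trend simulated at E11.5, 11.3% of unaltered genes were under an unadjusted 0.05, and 4.84% after its removal.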

Additional observations from a re-analysis of the deposited data

How the results depend on the processing

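No member passed an adjusted p of 0.05 as reported at either stage. At E11.5 the number that did was 1 (Glg1) with DESeq2, with edgeR's exact test and with at least 10 counts in every cortex, 2 with the replicate block (Glg1 and Arfgef1), 2 with the block and the length trend removed (Glg1 and Rab11b), and 0 to 3 when each cortex was left out in turn (Glg1, Golga4 and Arfgef1 without Mboat7-/- replicate 2, and Glg1 without Mboat7-/- replicate 1). The 8 E11.5 members under an unadjusted 0.05 became 2 with the length trend removed, 2 with length and GC trends removed and 2 with the length trend removed and the replicate block, and 5 to 10 with a cortex left out. The E11.5 median log2 fold change became 0.0098, 0.0077 and 0.0109 in the same 3 settings and ran from 0.0186 to 0.0624 with a cortex left out, beside a spread between cortices of 0.0081. At E12.5 the 2 members under an unadjusted 0.05 became 1 with RLE size factors, 1 with the exact test, 1 with no filter, 1 with the length trend removed and 1 with length and GC trends removed, and 0 with DESeq2, 0 with the replicate block and 0 with the block and the length trend removed. The range was 0 to 4 with a cortex left out, and the median ran from -0.0173 to 0.0587. Since same-numbered E12.5 samples correlated at -0.121, a crossed pairing was added after seeing the data, with 5 members under an unadjusted 0.05 and 0 under an adjusted one. The cause of these differences was not tested. A lone cortex in a group was assumed to vary like the other group. Single members kept a value within 1 standard error in 515 of 572 comparisons at E11.5 and in 596 of 616 at E12.5, and 21 members at each stage changed sign in at least 1 setting. Among Glg1, Trip11, Gcc2, Golga3, Golga4, Golgb1, Arfgef1, Rab11b and Sec24d none did so at E11.5, where Glg1 ran from 0.57 to 0.79, and at E12.5 Gcc2 (0.16 to 0.37), Sec24d (0.26 to 0.47), Trip11 and Golga4 did not. With 2 cortices per genotype, small differences were not detectable.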
